A study of Homo sapiens with 9 samples.

Results

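ACSS2-KO-3 PANC-1 cells were compared with NC cells of the same line across all genes with enough counts, by annotated gene type, by gene length and by function. PANC-1 is an established human pancreatic carcinoma line. The comparison used the 3 libraries titled ACSS2-KO-3 and the 3 titled nc, which is 6 of the 9 libraries of the series. The other 3 libraries, titled ACSS2-KO-2, shared the fit and are given where they bear on a gene. Of 58735 genes listed, 15811 had enough counts to be tested.

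Both groups were the same cell line with the label cancer as cell type, and no agent is named in any group. The treatment label of the NC libraries is NC. The treatment labels of the knockout libraries count upward from ACSS2-KO to ACSS7-KO, whereas the titles name ACSS2 in every case, and the titles were used. The labels do not say what the 3 in ACSS2-KO-3 or the letters NC mean, so whether the knockout is 1 clone is not known. They do not say either whether libraries of one group are separate cultures, so the p-values may measure technical spread only. In bulk RNA of this kind, fewer cells of a type and less RNA per cell cannot be told apart.

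ACSS2 joins acetate to coenzyme A in the cytosol and the nucleus and so supplies acetyl-CoA for lipid synthesis and for the acetylation of histones and other proteins. BCAT1 in the cytosol and BCAT2 in mitochondria catalyse the first step of branched-chain amino acid breakdown, the transfer of the amino group. The title of the series links ACSS2 to acetylation of BCAT1 in pancreatic cancer.

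The targeted gene was lower in the knockout. ACSS2 had 7.19, 8.57 and 8.50 CPM (counts scaled to a common library size) in the ACSS2-KO-3 libraries, against 33.3, 30.6 and 28.3 CPM in the NC libraries. The groups did not overlap, and the log2 fold change (ACSS2-KO-3 over NC, as throughout) was -1.92 with a standard error of 0.107 (edgeR quasi-likelihood test, Benjamini-Hochberg adjusted p = 1.49e-14). BCAT1 had 1.37, 1.64 and 1.78 CPM in ACSS2-KO-3 and 20.5, 20.1 and 17.5 CPM in NC. BCAT2 averaged 48.5 ± 3.61 CPM in ACSS2-KO-3 and 43.7 ± 2.00 CPM in NC (SD, n = 3 each), which missed the threshold with an edgeR adjusted p of 0.0741.

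Most genes differed between the groups. At an edgeR adjusted p under 0.05, 10006 of the 15811 genes were called, which is 63.3% of those tested. The 4938 that were higher in ACSS2-KO-3 made up 31.2% and the 5068 that were lower made up 32.1%. Changes of at least 2-fold were mostly falls. They numbered 190 genes upward (1.2%) and 2025 genes downward (12.8%), and 43.0% of the called genes had a log2 fold change under 0.5 in size. The median log2 fold change of all genes tested was -0.04. The 3 libraries of one group lay wholly above or below those of the other for 66.9% of all genes tested.

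The libraries of both groups were of like depth, at 16144829 to 17457190 counts in ACSS2-KO-3 and 14906798 to 16326713 in NC. Fewer genes had at least 1 count in ACSS2-KO-3 libraries, 22311 to 23183, than in NC libraries, 24476 to 24496. The log2 fold change followed the GC content of each gene's longest transcript across genes (Spearman rho 0.49, genes not being independent replicates). For that reason a second edgeR fit carried offsets for each library's smooth trend with GC content and length. After it, rho with GC content was -0.02, while the rank correlation with length was 0.108, beside -0.0558 without offsets. That fit called 9402 genes (59.5%), of which 5143 (32.5%) were higher and 4259 (26.9%) lower, with 234 (1.48%) and 1256 (7.94%) past 2-fold. Both fits called 6966 genes in the same direction, 3677 higher and 3289 lower, and 614 in opposite directions. Values from the second fit are given below as "with offsets". What part GC content and length play in the differences was not tested. Between ACSS2-KO-3 and ACSS2-KO-2 libraries 61.7% of genes were called, 31.2% higher and 30.5% lower in ACSS2-KO-3, with 0.639% and 13.1% past 2-fold. With offsets these shares were 56.1%, 31%, 25.1%, 0.898% and 8.04%. CDKN2A, which PANC-1 is known to lack through a deletion, had 0 counts in the NC libraries and averaged 0.707 CPM in ACSS2-KO-3 and 14.2 CPM in ACSS2-KO-2, and whether the ACSS2-KO-2 libraries hold other cells was not tested. A fit of the 6 ACSS2-KO-3 and NC libraries alone called 9706 genes, 4788 higher and 4918 lower.

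The largest rises included regulators of transcription, a ferritin subunit and growth factor signalling genes. ID3, one of the inhibitor of DNA binding proteins that block basic helix-loop-helix transcription factors, had 69.6, 68.7 and 73.8 CPM in ACSS2-KO-3 and 26.9, 26.3 and 29.2 CPM in NC. All ACSS2-KO-3 libraries were above all NC libraries (log2 fold change 1.36, SE 0.0687, edgeR adjusted p = 2.14e-15). Its relative ID2 averaged 5.42 ± 0.173 CPM in ACSS2-KO-3 and 1.54 ± 0.434 CPM in NC (SD, n = 3 each, log2 fold change 1.82). ID1, named here after its values were seen, averaged 378 ± 10.1 CPM in ACSS2-KO-3 and 174 ± 7.15 CPM in NC (SD, n = 3 each). In the ACSS2-KO-2 libraries ID1 averaged 174 CPM and ID3 29.9 CPM, and both were higher in ACSS2-KO-3 than there (log2 fold changes 1.12 and 1.24, edgeR adjusted p = 5.73e-16 and 1.15e-14). ID2 averaged 4.02 CPM in ACSS2-KO-2, where it was also higher than in NC (log2 fold change 1.39, edgeR adjusted p = 0.000127). Between ACSS2-KO-3 and ACSS2-KO-2 its log2 fold change was 0.43 (edgeR adjusted p = 0.049), or 0.20 with offsets (edgeR adjusted p = 0.363).

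FTH1, the heavy chain of the iron store ferritin, rose at a high level. It had 1819, 1874 and 1977 CPM in ACSS2-KO-3 and 857, 793 and 873 CPM in NC (log2 fold change 1.17, SE 0.0493, edgeR adjusted p = 6.01e-17). Its processed pseudogenes FTH1P2, FTH1P7 and FTH1P11 rose by log2 1.33, 1.16 and 1.47. Their sequences are close to FTH1, so how the authors' counting shared reads between them is uncertain.

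Other well expressed risers were ANKRD33B, an ankyrin repeat protein, with 87.9, 89.3 and 89.0 CPM in ACSS2-KO-3 and 31.3, 35.4 and 36.4 CPM in NC, and AMOTL1, an angiomotin family member that binds the coactivator YAP, with 126, 124 and 140 CPM in ACSS2-KO-3 and 47.6, 55.1 and 59.3 CPM in NC. For both genes the groups were far apart, with log2 fold changes of 1.37 and 1.26. FGFR2, a receptor for fibroblast growth factors, averaged 52.3 ± 2.24 CPM in ACSS2-KO-3 and 23.2 ± 0.326 CPM in NC (SD, n = 3 each). MAP2K3, the kinase that activates p38, SPNS2, an exporter of sphingosine-1-phosphate, SH2D5, an adaptor protein, and CCDC86, a coiled-coil protein, rose by log2 1.17, 1.22, 1.19 and 1.29. These 7 genes also rose with offsets, by 0.91 to 1.26.

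Among genes of low level, LY6K, a GPI-anchored surface protein, averaged 2.31 ± 0.135 CPM in ACSS2-KO-3 and 0.432 ± 0.235 CPM in NC, a log2 fold change of 2.39 (SD, n = 3 each, edgeR adjusted p = 2.04e-05). NPTX1, a neuronal pentraxin, PTGFRN, an immunoglobulin family membrane protein, CYP1A1, the aryl hydrocarbon receptor target monooxygenase, KRT4, an epithelial keratin, ATOH8, a basic helix-loop-helix factor, PPP2R2B, a regulatory subunit of protein phosphatase 2A, and ADORA1, the adenosine A1 receptor, rose by log2 1.56 to 2.04. In the ACSS2-KO-2 libraries NPTX1 averaged 9.17 CPM and PTGFRN 7.69 CPM, and both were lower in ACSS2-KO-3 than there (log2 fold changes -0.48 and -2.70, edgeR adjusted p = 0.00749 and 1.64e-10). EIF3CL, 1 of 2 near-identical genes for a subunit of initiation factor 3, had 41.6, 8.51 and 35.7 CPM in ACSS2-KO-3 and 7.24, 4.79 and 7.81 CPM in NC. Its copy EIF3C had 31.8, 25.7 and 43.1 CPM in ACSS2-KO-3 and 74.5, 25.5 and 36.1 CPM in NC and missed the threshold (edgeR adjusted p 0.0929, or 0.0313 with offsets), so the call on EIF3CL is uncertain.

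**Figure D1:**
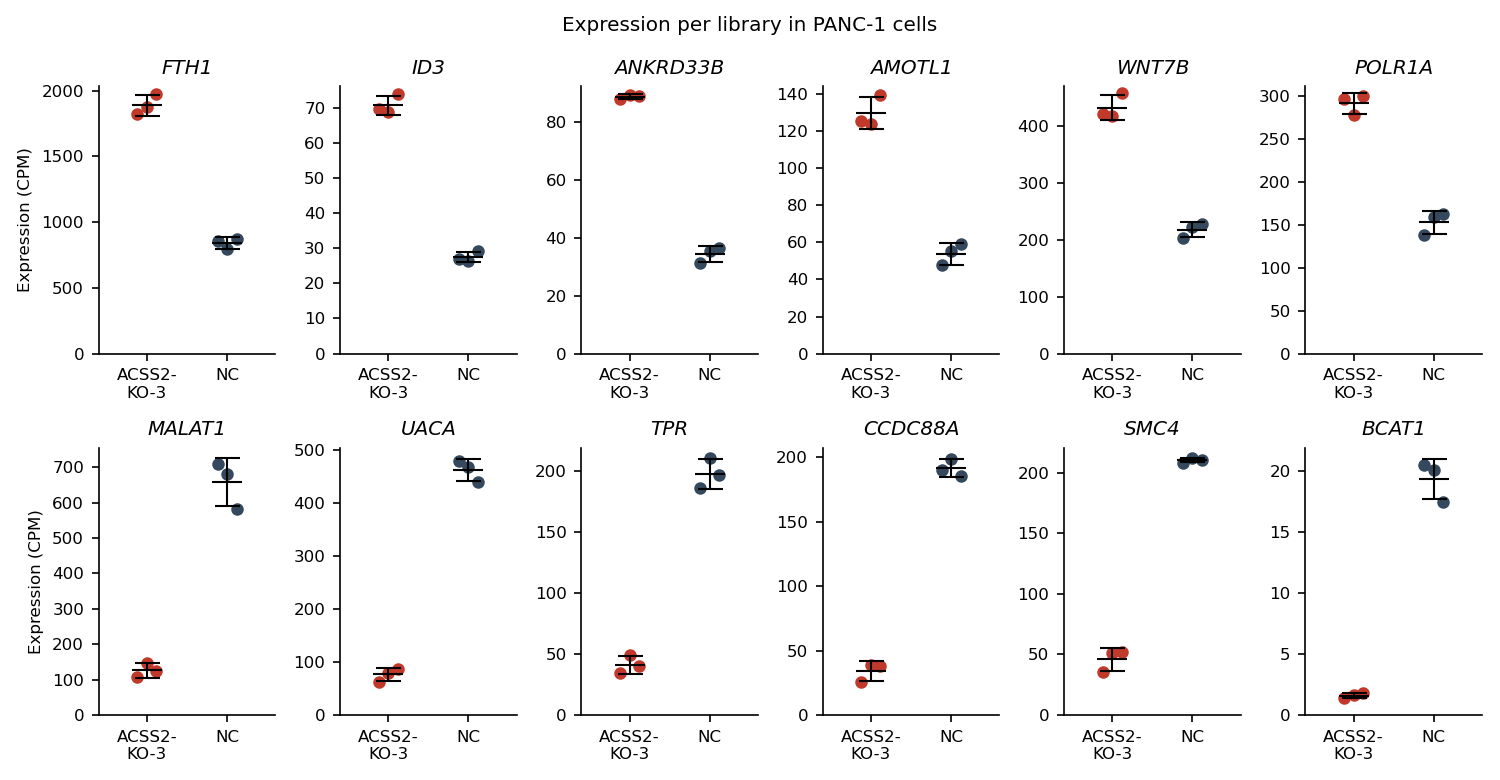
Expression in CPM (linear axis from 0) of 12 genes in the 3 ACSS2-KO-3 libraries and the 3 NC libraries. Points are libraries, and the black mark and bar are the mean and the SD. In the upper row (FTH1, ID3, ANKRD33B, AMOTL1, WNT7B, POLR1A) every ACSS2-KO-3 library lies above every NC library, and in the lower row (MALAT1, UACA, TPR, CCDC88A, SMC4, BCAT1) every one lies below.

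The largest falls at high level were in genes of varied kinds. UACA, a coiled-coil protein with ankyrin repeats, had 62.5, 80.1 and 87.7 CPM in ACSS2-KO-3 and 480, 469 and 440 CPM in NC. CCDC88A (girdin), an actin-binding protein of cell migration, had 25.4, 38.8 and 38.1 CPM in ACSS2-KO-3 and 190, 199 and 185 CPM in NC. Within ACSS2-KO-3, replicate 1 was the lowest for both genes, and all 3 libraries were far below NC. The log2 fold changes were -2.59 and -2.49 (edgeR adjusted p = 3.44e-19 and 7.81e-18), or -1.69 and -1.53 with offsets.

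ODF2L, a relative of a centriole protein, averaged 15.5 ± 2.82 CPM in ACSS2-KO-3 and 106 ± 7.37 CPM in NC (SD, n = 3 each, log2 fold change -2.78). CENPE, the kinetochore kinesin that brings chromosomes to the metaphase plate, averaged 8.81 ± 2.35 CPM in ACSS2-KO-3 and 58.4 ± 4.93 CPM in NC (SD, n = 3 each, log2 fold change -2.73). RB1CC1 (FIP200), a scaffold of the kinase complex that starts autophagy, averaged 13.5 ± 2.92 CPM in ACSS2-KO-3 and 85.5 ± 4.68 CPM in NC (SD, n = 3 each, log2 fold change -2.66). SYCP2 of the synaptonemal complex, PHF3, a PHD finger protein, ZNF292, a zinc finger protein, TTC14, a tetratricopeptide protein, and PPIG, a nuclear cyclophilin, had log2 fold changes of -2.63 to -2.44. With offsets those of these 8 genes were -1.76 to -1.29. They share a GC content of 34.4% to 38.9%, against a median of 48.7% for all genes tested. In ACSS2-KO-2 libraries their means were 53.2 to 114 CPM, and all 8 were lower in ACSS2-KO-3 than there (log2 fold changes -2.79 to -2.33).

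At lower levels the largest falls included EXPH5, an effector of the vesicle GTPase RAB27, with 0.261, 0.0608 and 0.137 CPM in ACSS2-KO-3 and 1.87, 2.39 and 2.27 CPM in NC. SLITRK6, a neuronal transmembrane protein, had 0.523, 0.729 and 0.548 CPM in ACSS2-KO-3 and 7.92, 7.25 and 8.23 CPM in NC, and PLCXD3, a phospholipase C domain protein, averaged 0.405 ± 0.206 CPM in ACSS2-KO-3 and 5.70 ± 1.27 CPM in NC (SD, n = 3 each). The log2 fold changes were -3.78, -3.67 and -3.78 (edgeR adjusted p = 1.92e-08, 6.91e-14 and 9.75e-12). ZMAT1, a zinc finger protein, had -3.53. With offsets SLITRK6 and PLCXD3 had -2.79 and -2.84. MUC16, the membrane mucin that carries the antigen CA125, averaged 0.113 ± 0.143 CPM in ACSS2-KO-3 and 1.14 ± 0.119 CPM in NC (SD, n = 3 each). It has a GC content of 50.3%, and its log2 fold change was -3.31, or -3.36 with offsets. TAS2R20, a bitter taste receptor, had 1 count over the 3 ACSS2-KO-3 libraries and 70 over the 3 NC libraries, which is 1.49% of the NC level with a 95% counting interval of 0.0371% to 8.56%.

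By annotated gene type, few genes of the long non-coding classes and the transcribed unprocessed pseudogenes rose in ACSS2-KO-3, while protein-coding genes divided about evenly. Over all genes tested 31.2% rose and 32.1% fell. Of 12910 protein-coding genes tested, 4724 rose and 4117 fell (median log2 fold change 0.03). Of 568 lincRNA genes (long intergenic RNAs) 36 rose and 228 fell (6.34% and 40.1%, median -0.51). Of 850 antisense genes 38 rose and 243 fell (4.47% and 28.6%, median -0.36), so that the share that fell was below that of all genes. Among 121 sense intronic genes 7 rose and 42 fell (5.79% and 34.7%), among 160 processed transcripts 9 rose and 67 fell (5.62% and 41.9%), and among 241 transcribed unprocessed pseudogenes 13 rose and 117 fell (5.39% and 48.5%). Of 464 processed pseudogenes, the intronless copies of messenger RNAs, 72 rose and 87 fell (median 0.03). With offsets the median was -0.48 for lincRNA, -0.42 for antisense and -0.46 for transcribed unprocessed pseudogenes. The sense intronic genes that fell numbered 18 with offsets. All long non-coding classes together had a median GC content of 48.7%, and protein-coding genes one of 48.8%.

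Summed over each library, counts outside protein-coding genes took 2.15%, 2.17% and 2.18% of ACSS2-KO-3 libraries and 3.00%, 2.95% and 2.87% of NC libraries. The groups did not overlap (2-sided exact permutation p = 0.1, the smallest that 3 against 3 libraries allow). lincRNA counts took 0.228% ± 0.0158 in ACSS2-KO-3 and 0.401% ± 0.0174 in NC (SD, n = 3 each). The shares lay apart in the same direction for antisense genes, at 0.231% ± 0.0115 in ACSS2-KO-3 and 0.313% ± 0.00688 in NC (SD, n = 3 each). Long non-coding genes are of low level as a class, and the comparison was repeated at matched levels. Among genes whose mean over all 9 libraries exceeded 20 CPM, 15 of 57 long non-coding genes rose and 34 fell (median -0.34, or -0.14 with offsets), while 3953 of 7724 protein-coding genes rose and 2150 fell (median 0.16). At the levels between, long non-coding and protein-coding genes fell in nearly the same shares. These were 33.0% and 31.1% at 1 to 2 CPM, 40.5% and 40.3% at 2 to 5 CPM, and 45.8% and 43.2% at 5 to 20 CPM. The shares that rose were 3.76% and 6.36%, 6.79% and 11.1%, and 12.8% and 21.3% in these 3 classes. Among genes of up to 1 CPM the medians were -0.56 for 687 long non-coding genes and -0.35 for 780 protein-coding genes, and 26.2% and 22.6% fell.

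MALAT1, the abundant nuclear RNA of splicing speckles, had 107, 148 and 125 CPM in ACSS2-KO-3 and 709, 682 and 582 CPM in NC. NEAT1, the scaffold RNA of paraspeckles, had 337, 291 and 220 CPM in ACSS2-KO-3 and 537, 556 and 511 CPM in NC. Both were lower in every ACSS2-KO-3 library (log2 fold changes -2.38 and -0.92, edgeR adjusted p = 1.93e-18 and 2.01e-09), and both were named after their values were seen. LINC00342, LINC01355 and CCDC18-AS1, given no function here, fell with log2 fold changes of -2.24, -2.45 and -1.76, and LINC01355 had -1.45 with offsets. FER1L4, a transcribed pseudogene of the ferlin family with a GC content of 60.9%, averaged 7.85 ± 1.41 CPM in ACSS2-KO-3 and 22.8 ± 1.40 CPM in NC (SD, n = 3 each, log2 fold change -1.53, or -1.69 with offsets). Among snoRNA host genes, SNHG14 had a log2 fold change of -0.70 and SNHG16 and SNHG17 of 0.44 and 0.57 (0.34 with offsets for SNHG17). In all, 4 of 21 rose and 10 fell (19.0% and 47.6%, beside 31.2% and 32.1% of all genes tested).

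A minority of long non-coding genes rose. AFAP1-AS1 had 109, 119 and 111 CPM in ACSS2-KO-3 and 59.8, 57.1 and 61.9 CPM in NC, with no overlap (log2 fold change 0.92, edgeR adjusted p = 2.24e-13). SH3RF3-AS1 rose by log2 1.47. The kit marked strand, but the strand setting of the authors' counting is not given in the sources used here, so reads of an antisense gene and of its partner cannot be told apart. AC007842.1, a long non-coding gene on chromosome 19, had 3.99, 4.74 and 4.18 CPM in ACSS2-KO-3 and 29.1, 32.1 and 29.3 CPM in NC (log2 fold change -2.80, or -2.85 with offsets).

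Mitochondrial RNAs moved in both directions, and without offsets only the ribosomal RNAs fell. Among 13 protein-coding genes of the mitochondrial genome 5 rose and 0 fell, beside 31.2% and 32.1% of all genes tested. Their median log2 fold change was 0.11, and with offsets 9 rose and 1 fell. Of 13 transfer RNA genes tested of 22 listed, 9 rose and 0 fell, with a median log2 fold change of 0.51, or 1.06 with offsets. MT-TL2 averaged 2.72 ± 0.489 CPM in ACSS2-KO-3 and 0.808 ± 0.115 CPM in NC, and MT-TH 6.44 ± 0.954 CPM in ACSS2-KO-3 and 3.06 ± 0.618 CPM in NC (SD, n = 3 each). Their log2 fold changes were 1.73 and 1.07, or 2.71 and 1.96 with offsets. Both ribosomal RNAs fell, MT-RNR2 with a log2 fold change of -0.41 (-0.16 with offsets) and MT-RNR1 with -0.18. Without ACSS2-KO-3 replicate 1, MT-RNR1 no longer passed the test. The short transfer RNAs are poorly captured by the selection of polyadenylated RNA and the size selection that the labels' protocols describe. The median level of the 2 ribosomal RNAs was 3708 CPM in ACSS2-KO-3 and 4852 CPM in NC. How fully that selection captured them is not known.

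**Figure D2:**
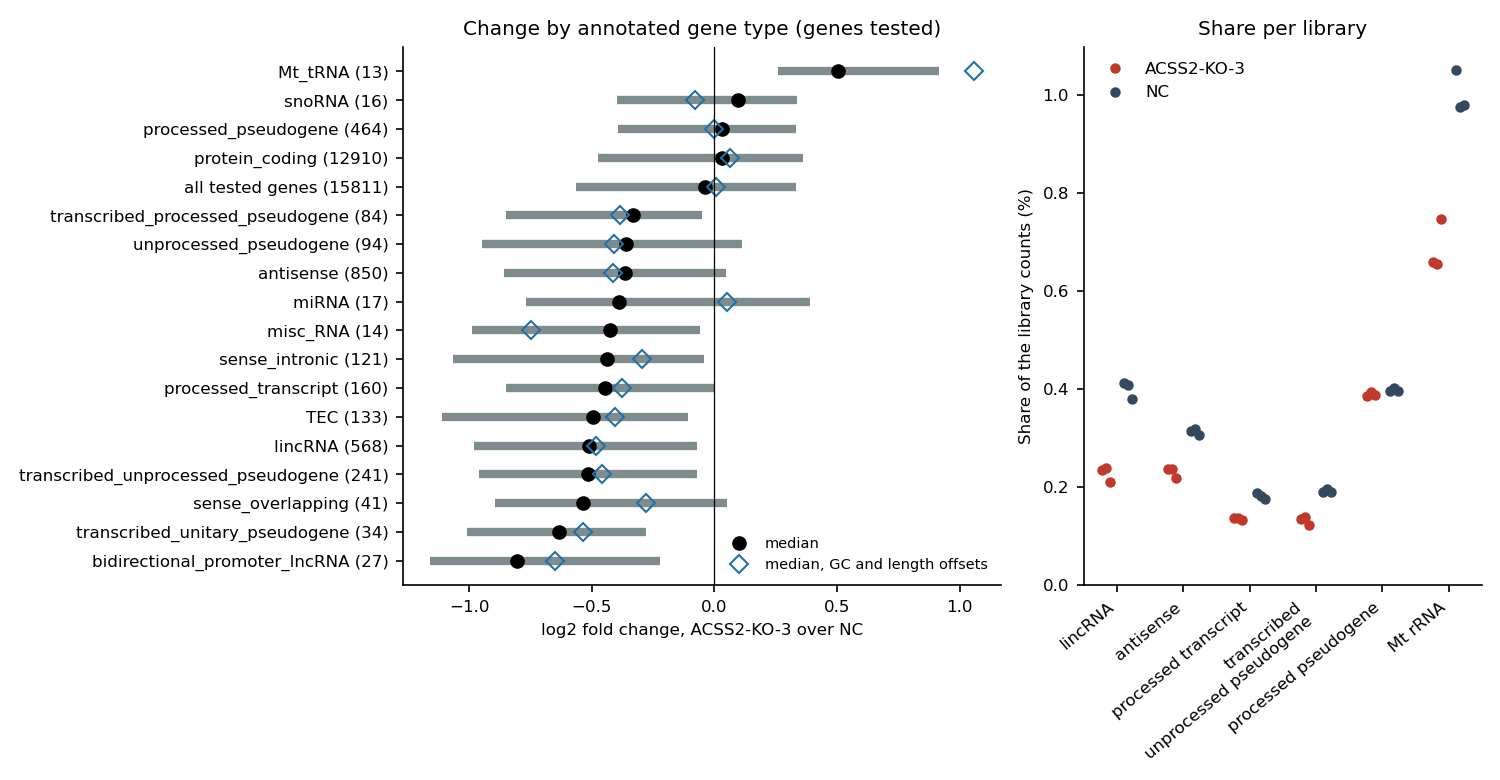
Left, the log2 fold change (ACSS2-KO-3 over NC) by annotated gene type: bars span the middle 50% of genes, black points are medians, open diamonds are medians with GC content and length offsets, and numbers in brackets are genes tested. Right, the share of each library's counts (%) in 6 types, 1 point per library. Long non-coding classes lie below 0 on the left, and the lincRNA and antisense shares of the 3 ACSS2-KO-3 libraries lie below those of the 3 NC libraries on the right.

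Among protein-coding genes, the share that fell was larger in the longer classes. Gene length here is the length of the merged exons. Of 2835 protein-coding genes of 8000 bases or more, 882 rose and 1268 fell (median log2 fold change -0.15), while of 3499 genes of 2000 to 4000 bases 1409 rose and 796 fell (median 0.11). In the shortest class, under 1000 bases, 30 of 108 rose and 20 fell, and only 108 of 1126 listed were tested. With offsets the counts in the longest class turned to 1199 higher and 840 lower. The length classes also differ in GC content, with a median of 44.7% in the longest class and 52.4% at 2000 to 4000 bases.

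Within classes of GC content, the medians of the length classes lay apart under 40% GC and close together at 60% or more. Among protein-coding genes under 40% GC, the median log2 fold change was -0.57 below 2000 bases (52 genes), -0.59 at 2000 to 4000 bases (301 genes), -0.79 at 4000 to 8000 bases (988 genes) and -1.02 at 8000 bases or more (697 genes). Of those 697 long genes 601 fell and 26 rose. At 60% GC or more the 4 medians were 0.26, 0.28, 0.29 and 0.28, and the longest class held 118 genes that rose and 34 that fell. In long non-coding genes the share that fell was 26.0% of 488 below 1000 bases and 58.9% of 73 at 8000 bases or more. Their median level also differed between these 2 classes, at 0.830 and 3.56 CPM in ACSS2-KO-3 libraries, and its part in the counts was not tested.

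**Figure D3:**
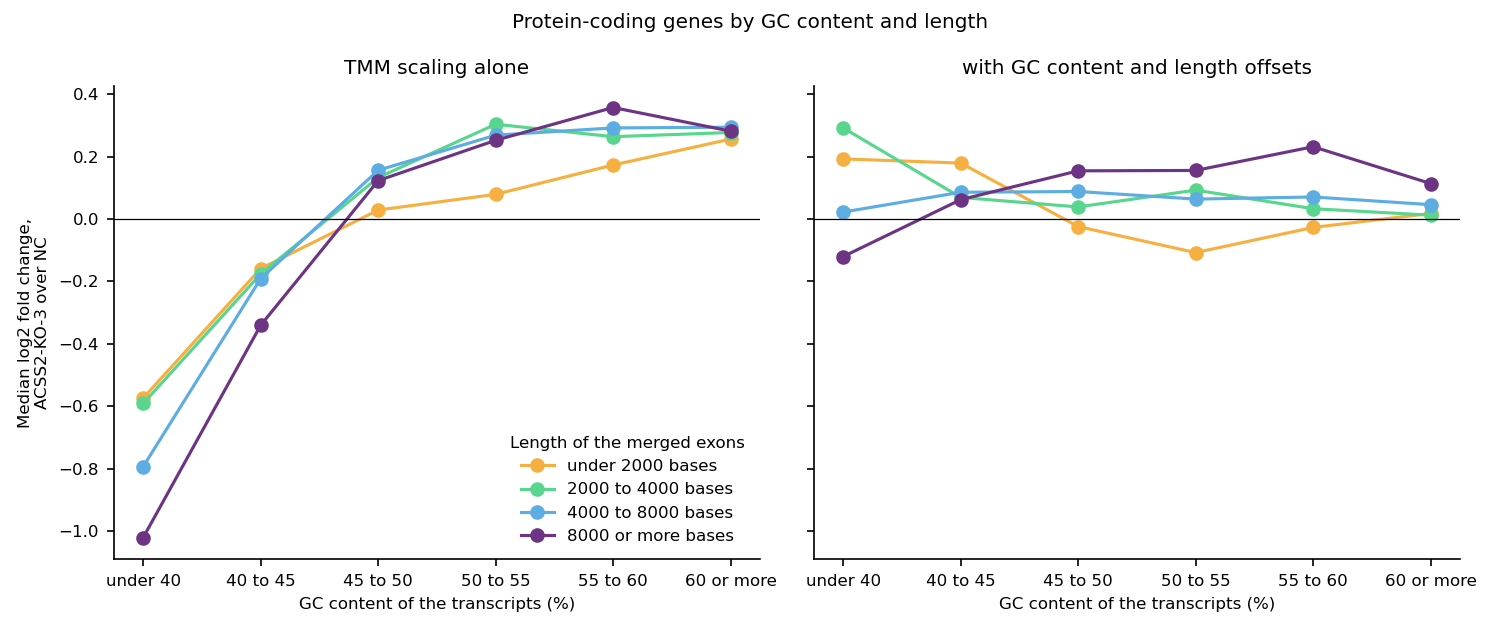
Median log2 fold change (ACSS2-KO-3 over NC) of protein-coding genes by GC content of their longest transcripts (%), with 1 line per length class, under TMM scaling alone (left) and with GC content and length offsets (right). On the left the longest genes reach -1.02 under 40% GC and all 4 lines lie between 0.26 and 0.29 at 60% or more, and on the right the medians lie between -0.12 and 0.29.

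By function, most genes that build ribosomes rose. Of 62 ribosome biogenesis genes, all of them tested, 42 rose and 9 fell (67.7% and 14.5%), against 31.2% and 32.1% of all genes. The median log2 fold change was 0.51, against -0.04 for all genes, or 0.45 against 0.01 with offsets. The list is of high level, with a median of 90.2 CPM in ACSS2-KO-3. Of protein-coding genes over 20 CPM 51.2% rose and 27.8% fell (median 0.16). No functional list was compared at matched levels, so the part of level in the list counts was not tested. BOP1, which processes the large subunit ribosomal RNA, had 236, 221 and 264 CPM in ACSS2-KO-3 and 112, 117 and 117 CPM in NC. POLR1A, the largest subunit of RNA polymerase I, had 297, 278 and 300 CPM in ACSS2-KO-3 and 138, 159 and 162 CPM in NC. In both genes every ACSS2-KO-3 library was above every NC library (log2 fold changes 1.06 and 0.93, edgeR adjusted p = 4.41e-14 and 1.68e-13). GNL3L, a nucleolar GTPase, rose by log2 0.96. NOP58, a core protein of box C/D snoRNPs, fell to 77.1 ± 9.60 CPM in ACSS2-KO-3, against 155 ± 5.75 CPM in NC (SD, n = 3 each). With offsets its log2 fold change was -0.61. NOC3L had a log2 fold change of -0.85, but with offsets of -0.02 (edgeR adjusted p = 0.852).

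Promoters of this group were searched for the letters CACGTG, the E-box bound by MYC family factors, which reads the same on both strands. RefSeq promoter windows (GRCh38.p14) of 300 bases, 250 before the start and 50 from the start on, were matched for 56 of the 62 genes. The motif was in 20 of these 56 windows (35.7%), in 7.26% of all 35116 windows and in 10.1% of 10215 windows of tested protein-coding genes. In 13 of the 20 it lay only at or after the start. Within the 250 bases before the start the share was 12.5%, which is 7 of 56, beside 6.34% of all windows and 8.94% of those of tested protein-coding genes. In other lists the windows held it in 6 of 42 genes of replication origins and forks (14.3%), 6 of 48 nucleoporins and importins (12.5%), 2 of 30 centrosomal CEP genes and 20 of 401 C2H2 zinc finger genes. The 5 members below rose and hold the motif, and they are shown to place it against the start. They were chosen after their values were seen. Each line gives 30 bases around the motif, 5′ to 3′ on the gene's strand, with the motif in capitals. They lie at chr1:19251807-19251836 (plus strand), chr6:41921515-41921544 (plus), chr17:4555340-4555369 (minus), chr4:2963374-2963403 (minus) and chr2:130342682-130342711 (plus).
MRTO4: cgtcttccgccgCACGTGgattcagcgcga
BYSL: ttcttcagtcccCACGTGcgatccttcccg
MYBBP1A: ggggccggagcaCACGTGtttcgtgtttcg
NOP14: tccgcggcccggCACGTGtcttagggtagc
IMP4: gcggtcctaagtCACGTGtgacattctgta

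MRTO4, an assembly factor of the large subunit, had 188, 187 and 206 CPM in ACSS2-KO-3 and 105, 101 and 105 CPM in NC. BYSL, which matures the small subunit, had 77.2, 80.2 and 92.0 CPM in ACSS2-KO-3 and 44.1, 45.2 and 45.3 CPM in NC. MYBBP1A, NOP14 and IMP4, all nucleolar proteins, rose by log2 0.82, 0.78 and 0.76. The motif starts 15, 29, 28 and 16 bases into the transcript in MRTO4, BYSL, MYBBP1A and NOP14, and 203 bases before the start in IMP4, which holds 2 matches. A match describes letters in a window and says nothing of binding.

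Other lists of transcription and translation genes also held more genes that rose than fell. So did protein-coding genes over 20 CPM, of which 51.2% rose and 27.8% fell, beside 31.2% and 32.1% of all genes tested. Of 33 RNA polymerase subunits, POLR1A among them, 20 rose and 6 fell (60.6% and 18.2%, median 0.32). POLR3G of RNA polymerase III, with 34.3% GC, had a log2 fold change of -1.46 (-0.32 with offsets). Of 38 aminoacyl-tRNA synthetases 27 rose and 5 fell (71.1% and 13.2%, median 0.32). VARS, which charges valine tRNA, averaged 516 ± 24.8 CPM in ACSS2-KO-3 and 276 ± 9.22 CPM in NC (SD, n = 3 each), and FARSA, a phenylalanine enzyme subunit, rose by log2 0.86. EPRS, for glutamate and proline, and DARS, for aspartate, had log2 fold changes of -0.74 and -0.44, and DARS was not called with offsets (edgeR adjusted p = 0.472). Of 66 translation initiation factors 38 rose and 13 fell (57.6% and 19.7%, median 0.26). EIF4G1, the scaffold of the cap-binding complex, had 1368, 1283 and 1431 CPM in ACSS2-KO-3 and 712, 780 and 808 CPM in NC, a log2 fold change of 0.83. Its relative EIF4G3 had -0.90, and EIF5B, the GTPase that joins the subunits, had -2.23, or -1.43 with offsets.

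Ribosomal protein genes changed by small amounts. Of 79 cytosolic ones tested 42 rose and 12 fell (53.2% and 15.2%, median log2 0.15, or 0.06 with offsets). RPL8 rose by 0.54 (0.29 with offsets). Of 77 mitochondrial ribosomal proteins 51 rose and 6 fell (66.2% and 7.79%, median 0.34), with MRPS2 at log2 0.77 and MRPS18A at 0.75. MRPL1, with 39.1% GC, had a log2 fold change of -0.48, but 0.23 with offsets (edgeR adjusted p = 0.0586). Respiratory chain and ATP synthase genes were listed by name, and the 87 tested hold pseudogenes such as UQCRFS1P1. Of the 87, 32 rose and 20 fell (36.8% and 23.0%, beside 31.2% and 32.1% of all genes tested). The median was 0.07, or with offsets 41 rose and 14 fell with a median of 0.11. CYC1, the cytochrome c1 of complex III, averaged 367 ± 22.9 CPM in ACSS2-KO-3 and 210 ± 4.37 CPM in NC (SD, n = 3 each). NDUFA5 of complex I and UQCRB of complex III had log2 fold changes of -0.96 and -0.53, but 0.23 and 0.34 with offsets.

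Proteasome and chaperonin genes rose more often than they fell, with 26 up and 6 down of 46 proteasome subunits (median 0.23) and 9 up and 2 down of 14 chaperonin and prefoldin genes (median 0.21). PSME3, an activator of the proteasome, and PSMB9, an immunoproteasome subunit, rose by log2 0.75 and 0.68. CCT5 of the chaperonin ring rose by 0.51. The core subunit PSMA3, the regulatory subunit PSMD12 and the prefoldin subunit VBP1 had log2 fold changes of -0.36, -0.40 and -0.14. With offsets the direction of these 3 turned, to 0.56, 0.41 and 0.67. VBP1 also lost its call without any 1 of ACSS2-KO-3 replicates 2 and 3 or NC replicates 1, 2 and 3.

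Most genes that copy DNA rose. Of 48 genes of replication origins and forks 31 rose and 9 fell (64.6% and 18.8%, beside 31.2% and 32.1% of all genes tested). The median was 0.41, or 0.46 with offsets. MCM2, a subunit of the replicative helicase, had 187, 180 and 199 CPM in ACSS2-KO-3 and 80.8, 89.4 and 101 CPM in NC, without overlap (log2 fold change 1.06, edgeR adjusted p = 2.57e-13). CDT1, which loads that helicase, rose by log2 0.99. RFC1, the large subunit of the clamp loader, and DBF4, the activator of the kinase CDC7, had log2 fold changes of -1.37 and -1.41 (-0.85 with offsets for DBF4). Of 32 nucleotide synthesis genes 21 rose and 6 fell (65.6% and 18.8%, median 0.38). RRM2, the small subunit of ribonucleotide reductase, averaged 172 ± 17.8 CPM in ACSS2-KO-3 and 97.7 ± 8.66 CPM in NC (SD, n = 3 each), and PFAS of purine synthesis rose by log2 0.81. PPAT, which starts purine synthesis and has 33.8% GC, had a log2 fold change of -0.44, but 0.76 with offsets.

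Of 61 DNA damage response genes 21 rose and 32 fell (34.4% and 52.5%, median -0.29), against 26 and 23 with offsets (median 0.05). The shares of all genes tested were 31.2% and 32.1%. RAD50 of the MRN complex had 1.31, 2.86 and 2.40 CPM in ACSS2-KO-3 and 10.8, 10.4 and 11.9 CPM in NC, and FANCM, a translocase of the Fanconi anaemia pathway, had a log2 fold change of -2.18, or -1.26 with offsets. RECQL4, a helicase, and ATRIP, the partner of the kinase ATR, rose by log2 0.76 and 0.74, or 0.49 and 0.50 with offsets. Of 39 centromere and kinetochore genes 17 rose and 14 fell (43.6% and 35.9%, median 0.07, or 0.33 with offsets). CENPO was up by log2 0.95, CENPM up by 0.77 and CENPE down as described above.

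Members of one complex moved in opposite directions. Of 22 cohesin and condensin genes 6 rose and 15 fell (27.3% and 68.2%, beside 31.2% and 32.1% of all genes tested). The median log2 fold change was -0.75, or -0.03 with offsets. SMC4, a core subunit of condensin, had 35.2, 50.8 and 52.1 CPM in ACSS2-KO-3 and 208, 212 and 210 CPM in NC. NCAPD2, a non-SMC subunit of condensin, had 280, 263 and 281 CPM in ACSS2-KO-3 and 166, 178 and 182 CPM in NC. Neither gene's groups overlapped (log2 fold changes -2.19 and 0.65, edgeR adjusted p = 1.34e-17 and 2.15e-11). SMC4 has a GC content of 37.3% and NCAPD2 of 52.5%. SMC6, of a related complex of DNA repair, had a log2 fold change of -2.19 and NCAPH2 of 0.82. With offsets SMC4 and SMC6 still fell (-1.23 and -1.24), and NCAPD2 and NCAPH2 still rose (0.44 and 0.55).

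Of 56 nucleoporins and importins tested 34 rose and 12 fell (60.7% and 21.4%, beside 31.2% and 32.1% of all genes tested). The median was 0.27, or 0.42 with offsets. NUP188, a scaffold nucleoporin, and XPO6, an exportin, rose by log2 0.79 and 0.80. TPR, the coiled-coil protein of the nuclear basket, had 34.6, 49.1 and 39.8 CPM in ACSS2-KO-3 and 186, 210 and 196 CPM in NC (log2 fold change -2.26, or -1.59 with offsets). KPNA5, an importin alpha, averaged 7.44 ± 0.816 CPM in ACSS2-KO-3 and 27.8 ± 2.11 CPM in NC (SD, n = 3 each) and had a log2 fold change of -0.64 with offsets.

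Most centrosome and cilium genes fell. Of 34 CEP genes, all of them tested, 7 rose and 23 fell (20.6% and 67.6%, beside 31.2% and 32.1% of all genes tested). The median log2 fold change was -1.13, or -0.50 with offsets. CEP290 of the ciliary transition zone had 2.88, 4.32 and 5.00 CPM in ACSS2-KO-3 and 29.4, 28.4 and 29.2 CPM in NC, without overlap. It and CEP162 had log2 fold changes of -2.84 and -2.49, or -1.72 and -1.58 with offsets. CEP72, with 55.4% GC, rose by log2 0.59, or 0.36 with offsets. Of 22 genes of intraflagellar transport and the BBSome 2 rose and 13 fell (9.09% and 59.1%, median -0.45, or -0.24 with offsets). IFT80 had a log2 fold change of -2.40 (-1.45 with offsets) and IFT74 of -2.23. CCDC112, a coiled-coil protein, had a log2 fold change of -2.81. Of 36 kinesins 16 rose and 13 fell (44.4% and 36.1%). Among them KIF26A had a log2 fold change of 1.01. KIF14 and KIF20B, which act in cytokinesis, had -1.93 and -2.23 (-1.11 and -1.04 with offsets).

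**Figure D4:**
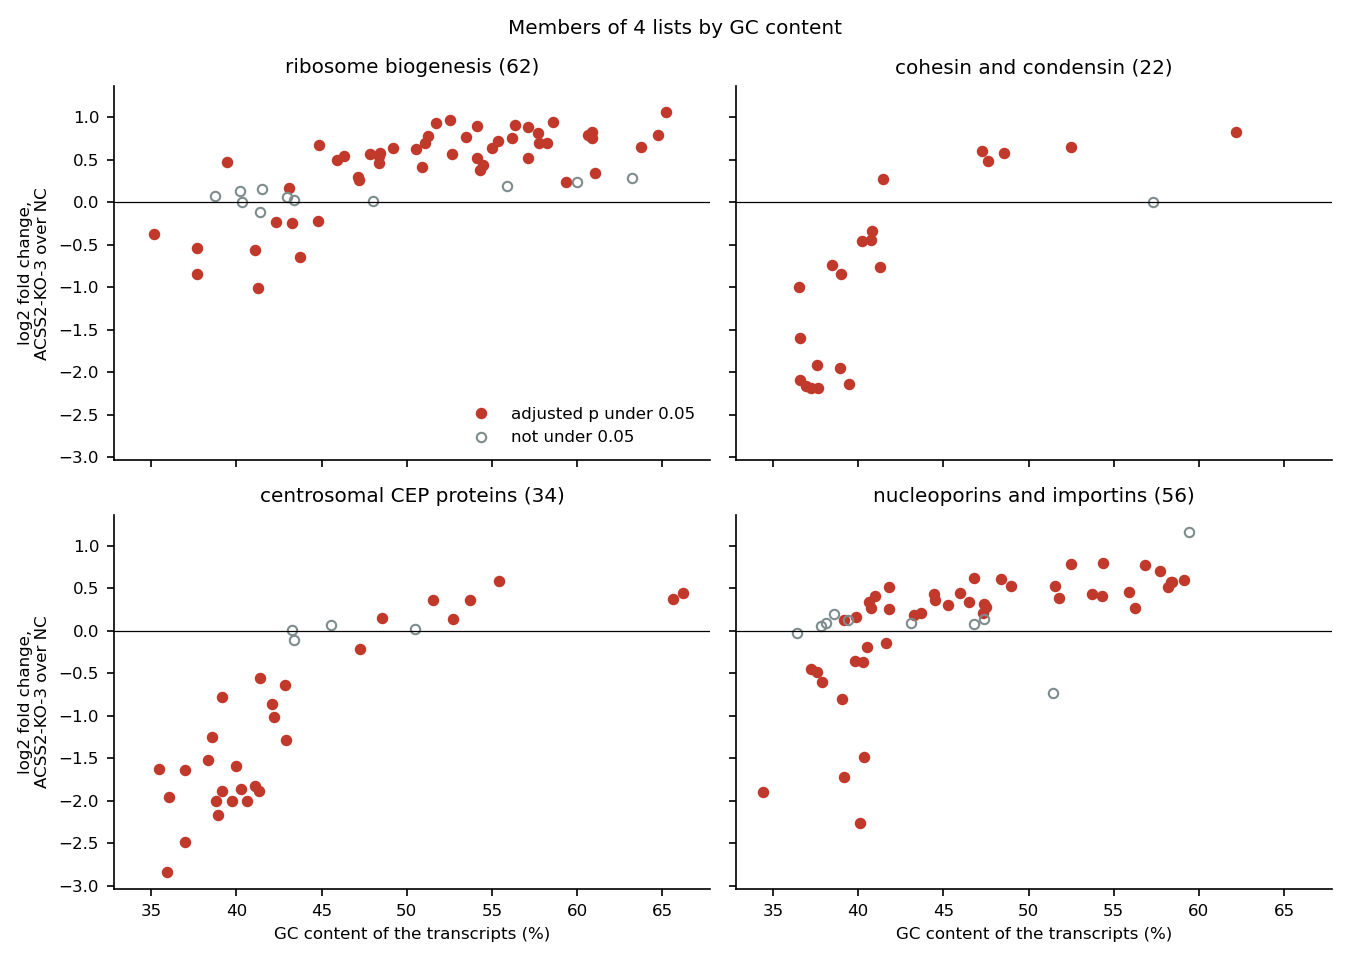
Log2 fold change (ACSS2-KO-3 over NC) of each tested member of 4 lists against the GC content of its longest transcript (%). Filled points passed the test (edgeR adjusted p under 0.05) and open points did not. The CEP, cohesin and condensin members that fell furthest, CEP290, CEP162, SMC4 and SMC6, lie at 35.9% to 37.6% GC, while most ribosome biogenesis genes lie above 0.

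Zinc finger genes fell more often than they rose. Chromatin genes divided about evenly, as did all genes tested, of which 31.2% rose and 32.1% fell. Of 605 C2H2 zinc finger genes listed 479 were tested, and 100 rose and 246 fell (median log2 -0.41, or -0.20 with offsets). These are 20.9% and 51.4%, at a median of 7.76 CPM in ACSS2-KO-3 and 43.5% GC. They lie near the shares of protein-coding genes of 5 to 20 CPM (21.3% and 43.2%) and of 40% to 45% GC (17.2% and 47.9%). The parts of level and GC content in the zinc finger counts were not tested. ZNF518A had 4.64, 6.32 and 6.24 CPM in ACSS2-KO-3 and 37.0, 31.6 and 30.7 CPM in NC, ZNF117 had a log2 fold change of -3.02, and ZNF296 of 1.01. With offsets ZNF518A and ZNF117 had -1.29 and -1.69. Many genes of this family have close relatives, among which the counting could split reads. Of 32 chromatin remodellers 14 rose and 13 fell. ATRX, which deposits histone H3.3 with DAXX, had 23.4, 26.9 and 26.7 CPM in ACSS2-KO-3 and 133, 140 and 143 CPM in NC, and CHD9 had a log2 fold change of -2.16. With offsets ATRX and CHD9 had -1.38 and -1.27. ARID1A of the BAF complex and SRCAP rose by log2 0.68 and 0.71. Of 51 acetyltransferases, deacetylases and bromodomain proteins, the enzymes and readers nearest to acetyl-CoA, 21 rose and 20 fell (median -0.01). CREBBP, a histone acetyltransferase, averaged 175 ± 9.28 CPM in ACSS2-KO-3 and 98.7 ± 10.3 CPM in NC (SD, n = 3 each), and TRIM28, a corepressor of zinc finger proteins, rose by 0.80 (0.52 with offsets). BAZ2B and BAZ1A, bromodomain proteins, had log2 fold changes of -2.16 and -1.55.

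Of 90 clustered histone genes 24 were tested, of which 1 rose and 10 fell (4.17% and 41.7%, beside 31.2% and 32.1% of all genes tested). The median was -0.50, or -0.43 with offsets. HIST1H2BD averaged 9.18 ± 1.67 CPM in ACSS2-KO-3 and 16.5 ± 0.216 CPM in NC, and HIST1H2AC 13.1 ± 1.13 CPM in ACSS2-KO-3 and 22.4 ± 0.375 CPM in NC (SD, n = 3 each). Histone copies are near-identical and most of their messages lack a poly(A) tail, so these values are uncertain.

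Membrane and signalling genes were divided, as were all genes tested, of which 31.2% rose and 32.1% fell. Of 28 receptor tyrosine kinases 14 rose and 6 fell (median 0.29). AXL, the receptor for GAS6, had 652, 580 and 687 CPM in ACSS2-KO-3 and 326, 340 and 345 CPM in NC (log2 fold change 0.92, edgeR adjusted p = 8.72e-14). EGFR rose by log2 0.41, and EPHA7, an ephrin receptor, had -2.67. Of 29 WNT ligands and frizzled receptors 10 rose and 10 fell (34.5% each), near the shares of all genes. WNT7B had 420, 417 and 457 CPM in ACSS2-KO-3 and 202, 223 and 227 CPM in NC, and WNT10A rose by log2 1.43. Of 27 YAP and TEAD target genes 16 rose and 7 fell (median 0.30), with AJUBA, a LIM protein of the Hippo pathway, up by log2 1.03. WWTR1 (TAZ), the relative of YAP, had -0.89, or -0.35 with offsets.

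Of 31 integrins and laminins 12 rose and 10 fell (38.7% and 32.3%), near the 31.2% and 32.1% of all genes tested. The log2 fold changes were 0.54 for ITGB5, -1.39 for ITGAV and -2.58 for ITGB8 (0.33, -0.54 and -1.63 with offsets). Of 29 collagens tested 12 rose and 7 fell, with log2 fold changes of 1.31 for COL26A1, 1.05 for COL4A2 and -2.13 for COL21A1. SEMA3C, a secreted guidance protein, fell to 74.9 ± 13.5 CPM in ACSS2-KO-3, against 292 ± 11.2 CPM in NC (SD, n = 3 each, log2 fold change -1.96, or -1.31 with offsets). Of 18 chemokines and interleukins 6 rose and 7 fell, or 3 each way with offsets. The chemokine CX3CL1 and the cytokine IL18 had log2 fold changes of -0.91 and -0.84, and IL18 was not called with offsets (edgeR adjusted p = 0.0611).

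Of 45 ubiquitin-specific proteases 15 rose and 19 fell (median -0.11, but 0.07 with offsets). These are 33.3% and 42.2%, beside 31.2% and 32.1% of all genes tested. Of 32 ubiquitin-conjugating enzymes 15 rose and 9 fell (median 0.15, or 0.33 with offsets). The lipid transfer proteins VPS13A and VPS13C had log2 fold changes of -2.28 and -1.98 (-1.25 and -0.96 with offsets), the deubiquitinase USP8 of endosomes -2.00, and USP22 of the SAGA complex 0.75. RAB27B, a GTPase of secretion, had -1.99, or -0.94 with offsets. UBE2S, which extends ubiquitin chains for the anaphase-promoting complex, averaged 845 ± 44.6 CPM in ACSS2-KO-3 and 479 ± 1.63 CPM in NC (SD, n = 3 each). The conjugating enzyme UBE2D1 had a log2 fold change of -0.83, but 0.33 with offsets.

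Of 27 NRF2 target and glutathione genes 19 rose and 6 fell (70.4% and 22.2%, beside 31.2% and 32.1% of all genes tested). The median was 0.28, or 0.19 with offsets, and the list holds FTH1. SRXN1, which repairs peroxiredoxins, had 7.06, 8.27 and 6.86 CPM in ACSS2-KO-3 and 2.18, 2.98 and 3.93 CPM in NC, and GPX1, a glutathione peroxidase, rose by log2 0.78. SLC7A11, the cystine importer of the same list, fell to 8.56 ± 1.57 CPM in ACSS2-KO-3, against 30.8 ± 2.34 CPM in NC (SD, n = 3 each, log2 fold change -1.84, or -0.68 with offsets). Metallothioneins and S100 proteins gave 3 up and 7 down of 15 (20% and 46.7%), or 1 and 11 with offsets. The log2 fold changes were -0.61 for MT1A, -0.58 for MT1X and 0.37 for S100A10 (0.18 with offsets).

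Metabolic genes near the targeted enzyme moved in both directions, as did all genes tested, of which 31.2% rose and 32.1% fell. Of 21 acetyl-CoA and acyl-CoA synthetases 9 rose and 6 fell, ACSS2 among them. Of 30 tricarboxylic acid cycle genes 18 rose and 7 fell (median 0.22), with PC, which carboxylates pyruvate, at a log2 fold change of 0.73 (0.48 with offsets). Of 25 genes of branched-chain amino acid breakdown 7 rose and 12 fell (median -0.18), BCAT1 among them. SLC25A44, the mitochondrial carrier of these amino acids, rose by log2 0.54, and DBT, the transacylase of the branched-chain ketoacid dehydrogenase, had -1.04 (-0.27 with offsets). SLC16A3, the lactate exporter MCT4, averaged 710 ± 34.3 CPM in ACSS2-KO-3 and 504 ± 33.9 CPM in NC (SD, n = 3 each, log2 fold change 0.49, or 0.33 with offsets). ABCG2, a drug efflux pump with 41.2% GC, had 45.6, 45.6 and 45.5 CPM in ACSS2-KO-3 and 24.3, 21.4 and 24.9 CPM in NC, while its relative ABCA5 had a log2 fold change of -2.28 (-0.93 with offsets). SLC35A3, a sugar nucleotide carrier of the Golgi, had -1.74 (-0.69 with offsets).

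**Figure D5:**
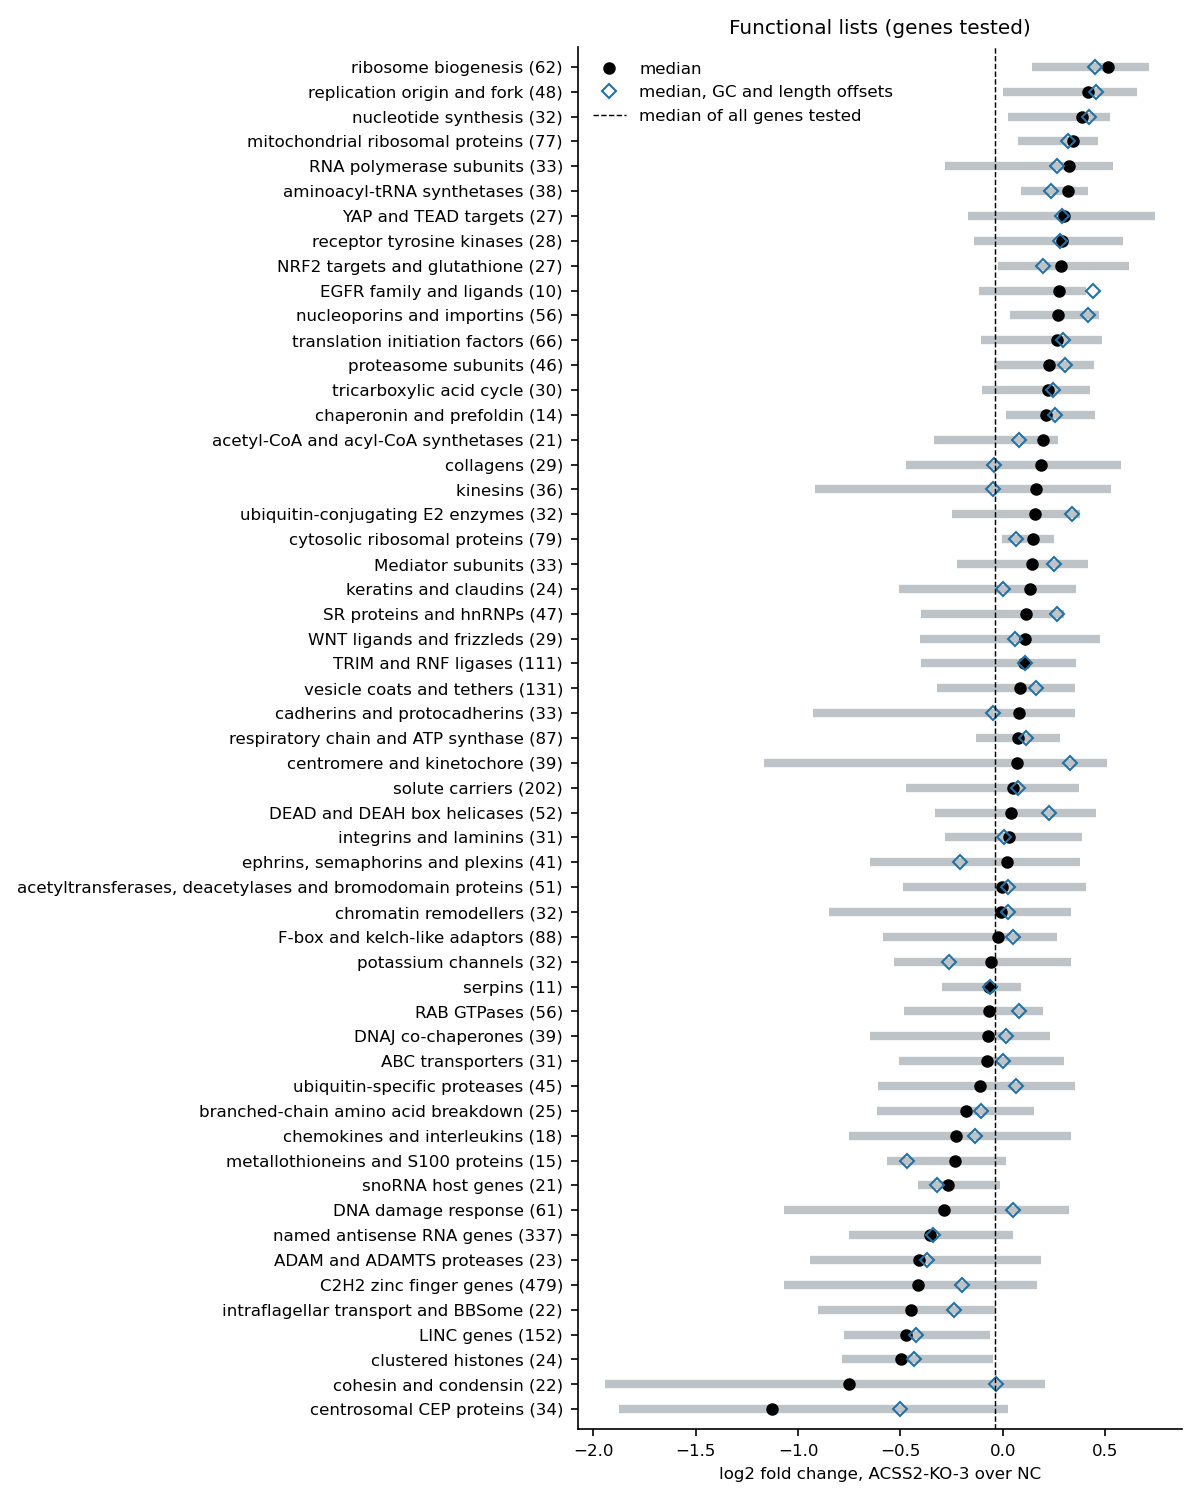
Log2 fold change (ACSS2-KO-3 over NC) of most functional lists with at least 10 genes tested (numbers in brackets). Bars span the middle 50% of members, black points are medians, open diamonds are medians with GC content and length offsets, and the dashed line is the median of all genes, -0.04. The list medians run from 0.51 for ribosome biogenesis to -1.13 for CEP genes, and that of cohesin and condensin is -0.75, or -0.03 with offsets.

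The epithelial identity of the line was checked in both groups. Summed over 6 epithelial markers, the level was 5243 to 5900.1 CPM in ACSS2-KO-3 libraries and 4414 to 4449 CPM in NC libraries. Of the 6 genes 3 rose and 1 fell (median log2 0.07), against 1 and 1 with offsets (median -0.17). The log2 fold changes were 0.36 for KRT8 (0.17 with offsets) and -0.73 for EPCAM. Over 4 mesenchymal markers it was 1738 to 1852 CPM in ACSS2-KO-3 and 1759 to 2009 CPM in NC. Of these, VIM was not called (log2 fold change -0.03, edgeR adjusted p = 0.651), CDH2 rose by log2 0.32 and ZEB1 had -1.69 (-0.86 with offsets). Acinar, islet and erythroid markers summed to at most 0.196 CPM in any ACSS2-KO-3 or NC library, with AMY2A, PNLIP, GCG, INS, SST and HBB at 0 in all 6. Immune markers summed to 3.01 to 3.09 CPM in ACSS2-KO-3 and 2.56 to 4.49 CPM in NC, with CD3E and PTPRC at 0. Endothelial markers summed to 1.895 to 2.40 CPM in ACSS2-KO-3 and 2.68 to 3.68 CPM in NC, where KDR had a log2 fold change of -0.56 and lost its call without ACSS2-KO-3 replicate 1, ACSS2-KO-3 replicate 2 or NC replicate 1, with DESeq2 and with length offsets. Of 5 fibroblast and stellate markers, which summed to 60.7 to 69.6 CPM in ACSS2-KO-3 and 163 to 182 CPM in NC, only COL1A1 had enough counts to be tested, and LUM was at 0. COL1A1, a chain of type I collagen, made up nearly the whole sum, at 64.1 ± 4.66 CPM in ACSS2-KO-3 and 172.7 ± 9.66 CPM in NC (SD, n = 3 each, log2 fold change -1.43, or -1.58 with offsets). The part of these lists in the results was not tested.

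A few genes had counts in ACSS2-KO-3 libraries and none in NC libraries. SLIT2, a secreted guidance protein, had 0.327, 0.669 and 0.617 CPM in ACSS2-KO-3 and 0 in the 3 NC libraries, and HOXA9, a homeobox factor, had 0.653, 0.243 and 0.411 CPM in ACSS2-KO-3 and 0 in NC. With the floor of 3 counts per NC library in place of 0, SLIT2 was at least 2.88-fold higher in ACSS2-KO-3 and HOXA9 at least 2.34-fold higher. Both averaged more in ACSS2-KO-2 libraries, 3.69 CPM for SLIT2 and 2.22 CPM for HOXA9, so that the ACSS2-KO-3 level was 14.6% and 19.7% of it. CDKN2A, the cell cycle inhibitor p16, averaged 0.707 ± 0.198 CPM in ACSS2-KO-3, and IRS4, an insulin receptor substrate, 0.724 ± 0.272 CPM (SD, n = 3 each), with 0 in NC for both. They were at least 3.78-fold and 3.88-fold higher in ACSS2-KO-3 than in NC, and their levels were 4.98% and 6.42% of those in ACSS2-KO-2. For XIST the bound was 7.75-fold and the share 1.46%. All of these genes were named for 0 counts in NC, which sets their direction against NC. SLIT2, HOXA9, CDKN2A and IRS4 passed the count filter only through ACSS2-KO-2, where their levels were higher. In the other direction HOOK1, a microtubule-binding adaptor, had a count of 0 in each ACSS2-KO-3 library, 0.250, 0.194 and 0.358 CPM in NC and 4.14 CPM on average in ACSS2-KO-2. With the floor of 3 counts per ACSS2-KO-3 library in place of 0, the NC mean of HOOK1 was 1.37-fold the ACSS2-KO-3 level. That value leaves out the counting error of the few NC counts, and HOOK1 passed the count filter only through ACSS2-KO-2. A set of 92 genes was chosen for at most 3 counts in NC and a higher level in ACSS2-KO-2 than in NC. XIST was left out. The choice holds the NC level near 0, so the contrast with NC is in part set by it. The summed level was 9.67, 11.8 and 11.2 CPM in ACSS2-KO-3 and 1.19, 1.55 and 2.27 CPM in NC. The ACSS2-KO-3 level was 5.56% of that in ACSS2-KO-2. Of the 92 genes, 25 were called higher in ACSS2-KO-3 than in NC, beside 31.2% of all genes tested. The source of these counts was not tested.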

How the data were processed

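Whole-number counts per gene, 1 column per library and not scaled, were deposited by the authors for 9 PANC-1 libraries of polyadenylated RNA. The submitters' processing notes name GRCh38 as build and HISAT2 2.2.1, StringTie 2.1.6, cutadapt 1.9, edgeR and DESeq2 as tools. For the counting and strand settings the sources used here give nothing. All identifiers, positions and lengths matched GENCODE release 29.

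Counts were filtered with filterByExpr (minimum count 10, minimum total 15), scaled with TMM factors and fitted over all 9 libraries with edgeR 4.0.16 (R 4.3.3, quasi-likelihood, 6 residual degrees of freedom, 2-sided). Benjamini-Hochberg adjustment ran over the 15811 genes tested, and genes under 0.05 were called. The fit with offsets modelled each library's log levels on GC content and length with mgcv 1.9.3. GC content is that of the gene's longest transcript, whereas length is that of the merged exons. The scripts were tested on simulated data. A count of 0 allows up to 3 counts in a library, and floors and intervals cover counting error only. Fold bounds from a floor leave out the counting error of the other group.

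The genes and lists were chosen with earlier results of these data known. Lists drawn by gene name can hold pseudogenes. The naming rule took ACSS2, BCAT1 and BCAT2, the 15 most changed genes in each direction (10 at 50 CPM or more), up to 2 per direction from each list, gene type and length class, and the 5 highest genes at 0 in one group. The text leaves out some of these. Same-numbered libraries of different groups deviated with correlations of -0.041 to 0.056, with 0 of 9 over 0.1, so no pairs were formed from the numbers. Alternatives were DESeq2 1.42.0, limma-voom (limma 3.58.1), RLE scaling, other filters, the 6 libraries alone, offsets, the replicate block and leaving out each library.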

Additional observations from a re-analysis of the deposited data

How the results depend on the processing

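The 10006 genes called between ACSS2-KO-3 and NC became 9402 with GC content and length offsets, 9427 with DESeq2 and 9296 to 9794 when each library was left out in turn. No pairing of libraries was found, and a fit with the replicate number as a block called 10022. Genes at least 2-fold lower numbered 1256 with offsets and 1263 with offsets and the replicate block, beside 2025. Genes at least 2-fold higher numbered 343 with length offsets and 109 among genes of at least 1 CPM only, beside 190. The share of counts outside protein-coding genes, ACSS2-KO-3 minus NC, was -0.554 percentage points without the 100 most abundant genes, beside -0.774. The rank correlation across genes of log2 fold change with length was -0.106 with genomic span, beside -0.0558, and it turned to 0.108 with GC content and length offsets and 0.130 with length offsets. Direction turned with offsets, and with offsets and the block, for MRPL1 (0.23 and 0.23), NDUFA5 (0.23 and 0.24), UQCRB (0.34 and 0.34), PSMD12 (0.41 and 0.42), PSMA3 (0.56 and 0.56), UBE2D1 (0.33 and 0.32), VBP1 (0.67 and 0.67) and PPAT (0.76 and 0.77). These offsets were built to take out smooth trends with GC content and length, but a rank correlation with length of 0.108 remained. No other cause was tested. Of 178 named genes called, 165 kept direction and call under every alternative in which they were tested. A gene filtered out of an alternative was not counted as lost there. CDKN2A, IRS4, SLIT2 and HOXA9 were tested in 14 alternatives, beside 16 for genes such as LY6K. Depth limits genes near 3 counts in a library.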

Other observations

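The deposited table assigns genes to families of transcription factors. Of 28 tested forkhead genes 15 rose and 6 fell in ACSS2-KO-3 against NC, with a median log2 fold change of 0.45, or 0.23 with GC content and length offsets. Of 101 homeobox genes tested, of 193 listed, 27 rose and 14 fell (median 0.12, or 0.02 with offsets). Of 10 E2F family genes 5 rose and 1 fell (median 0.25, or 0.33 with offsets), and of 10 Rel homology domain genes 7 rose and 3 fell (median 0.44, or 0.29 with offsets). Of 39 ZBTB genes 10 rose and 17 fell (median -0.13, or -0.03 with offsets). Over all genes tested 31.2% rose and 32.1% fell.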
